A study of Mus musculus with 2 samples.

Results

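The Gadd45 genes and Cdkn1a were followed in the livers of wild-type (WT) mice and of mice lacking CREBH (KO), in the fed state and after 24 h of fasting. The 4 genes, Gadd45a, Gadd45b, Gadd45g and Cdkn1a, were taken through the RefSeq accessions of the array probes, which gave 5 probes on 14 spots per array, out of 20284 genes that could be named. All mice were C57B6J, the KO being a null of CREBH on that background, and they were fed ad lib or fasted. Pooled total liver RNA was hybridised to 2 two-colour arrays, 1 per feeding state, with the WT pool in Cy3 and the KO pool in Cy5 each time. The 4 pools were thus WT fed, KO fed, WT fasted and KO fasted, each measured once. The sources used here do not say how many mice a pool held, nor their age. With 1 pool per group no test was possible, and the differences below describe these pools by their size, a difference of 2-fold (1 on the log2 scale) being the rule. The genes were picked with their ratios on these arrays already known, so those ratios are given as a description.

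GADD45 proteins are small nuclear proteins without enzyme activity that act by binding partners. They bind the kinase MAP3K4, which feeds the p38 and JNK stress pathways, the replication clamp PCNA, the mitotic kinase CDK1 with cyclin B1, and p21. Cdkn1a encodes p21, an inhibitor of cyclin-dependent kinases that holds cells in G1 and is the classic target of p53. In liver, Gadd45b is known as a gene of regeneration and of the fasting response and as a coactivator of the nuclear receptor CAR, and Cdkn1a is known to be induced in fasted mice. Creb3l3 encodes CREBH, a liver factor held in the endoplasmic reticulum until proteolysis frees its active part, as happens in fasting.

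Levels are log2 signals after background correction and normalization, and a probe was measured where the scanner software found it well above background in each pool compared. The lowest level of such probes was between 6.04 and 6.11 in the 4 pools, and between 39.9% and 45.9% of gene spots were well above background. Levels of different probes cannot be set against each other. Creb3l3 itself was at 14.00 in WT fed, 13.12 in KO fed, 15.03 in WT fasted and 12.95 in KO fasted, lower in the KO pool in both states. Its probe was still well above background in both KO pools, by 7.03 fed and 6.91 fasted over the lowest such level, and the sources used here do not say whether it lies in the part removed from the gene. All 8 hepatocyte markers, such as Alb, were well above background in every pool. Of the markers of other cells, 9 of 9 Kupffer cell, 6 of 6 endothelial and 4 to 5 of 5 stellate cell genes were above it as well. Above it were also 1 of 4 B cell genes (Cd79b), 3 to 5 of 7 T and NK cell genes, 3 to 4 of 5 neutrophil genes, among them S100a8 and S100a9, and 3 of 5 bile duct genes (Krt19, Sox9 and Spp1). Among those at background in every pool were Cd79a and Ms4a1 of the B cell list, Cd8a and Klrd1, Krt7 and Epcam, and Mpo of the neutrophil list. In bulk liver, fewer cells of a type and less RNA per cell cannot be told apart. Spots of probes printed 10 times had a median SD of 0.09 (235 probes) for the fed and 0.08 (258 probes) for the fasted KO over WT ratio, which holds no difference between mice or pools. Since KO was in Cy5 on both arrays, genotype and dye cannot be told apart in a ratio of 1 array. In the difference of ratios between the arrays a dye effect of a gene cancels if it is the same on both. A genotype difference that is the same in both states cancels with it, so only its change with feeding remains. Each feeding state had its own array, so feeding and array cannot be told apart in a fasted over fed difference. Both genotypes share those arrays, so a like difference in both is no independent repeat. When the intensity-dependent correction was replaced by subtracting the median ratio over all gene spots (all-spot centring), the median of measured genes went from 0.01 to 0.78 fed and from 0.01 to 0.57 fasted, and the split of genes 2-fold apart went from 18 higher and 45 lower to 3102 and 9 in the fed state, and from 44 and 53 to 940 and 16 in the fasted state.

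The sequences before the start sites of the 3 Gadd45 genes are shown because the genes differed in their response although they are close relatives. Each line holds the 250 bases before the RefSeq start in GRCm38.p6, 5′ to 3′ along the gene. Capitals mark matches, on either strand, to an E-box, a CCAAT box, a TATA box, a GC box, the octamer or the p53 half-site, as named with the counts after the sequences.
Gadd45a, chr6:67037408-67037657, minus strand: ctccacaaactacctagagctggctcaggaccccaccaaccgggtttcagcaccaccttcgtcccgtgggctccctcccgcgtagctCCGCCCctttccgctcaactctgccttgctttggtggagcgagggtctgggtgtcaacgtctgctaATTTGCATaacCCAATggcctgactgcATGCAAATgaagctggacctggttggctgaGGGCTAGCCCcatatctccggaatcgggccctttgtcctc
Gadd45b, chr10:80929841-80930090, plus strand: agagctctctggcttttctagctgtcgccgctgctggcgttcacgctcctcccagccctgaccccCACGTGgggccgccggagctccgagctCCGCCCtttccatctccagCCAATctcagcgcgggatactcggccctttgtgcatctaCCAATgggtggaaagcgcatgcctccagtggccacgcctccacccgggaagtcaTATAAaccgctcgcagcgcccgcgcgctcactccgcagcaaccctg
Gadd45g, chr13:51846425-51846674, plus strand: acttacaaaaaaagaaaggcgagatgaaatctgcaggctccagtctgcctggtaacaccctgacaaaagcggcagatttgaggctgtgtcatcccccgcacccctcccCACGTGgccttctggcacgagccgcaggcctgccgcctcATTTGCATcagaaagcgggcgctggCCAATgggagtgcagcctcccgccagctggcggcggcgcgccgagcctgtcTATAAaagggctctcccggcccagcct

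The E-box CACGTG stood in the windows of Gadd45b and Gadd45g, which 6.02% of all 32851 RefSeq windows of that length held, and not in that of Gadd45a. A CCAAT box was in all 3 windows, against 33.8% of all windows, and the TATA box, searched as TATAA, in those of Gadd45b and Gadd45g, against 22.8%. The octamer, ATTTGCAT, stood in the windows of Gadd45a and Gadd45g, against 1.60%, and a GC box, searched as GGGCGG, in those of Gadd45a and Gadd45b, against 32.7%. Gadd45a also held 1 p53 half-site, GGGCTAGCCC, a motif of 7.13% of windows. In none of them was there a cyclic AMP response element, the kind of site that CREB-like factors bind, as TGACGTCA (1.55% of all windows) or as its shorter form TGACG (17.8%), which is contained in the former. Nor was there TGTTTAC, a FOXO site (3.17%). These are matches of letters in 1 window per gene and no evidence of binding.

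Gadd45g, the member of the family that is induced by cytokines, was lower in KO than in WT liver, fed and fasted. Its level was 13.01 in WT fed, 11.23 in KO fed, 13.45 in WT fasted and 12.16 in KO fasted liver, so both KO pools lay below both WT pools. The KO over WT log2 ratio was -1.78 in the fed state, 3.44-fold lower, and -1.29 in the fasted state, 2.45-fold lower. Each rests on a single spot per array, with KO in Cy5 on both, so genotype and dye cannot be told apart in them. Probes of like brightness that were printed 10 times (9 probes) had a median SD between spots of 0.07 and 0.06 for these ratios. The scanner software gave -1.83 with an error of 0.26 and -1.27 with an error of 0.23. Among measured genes the fed ratio of Gadd45g was the 11th lowest of 11377 and the fasted one the 24th lowest of 12262. Of the 4 genes, Gadd45g alone was 2-fold apart in the fed comparison, where 0.554% of measured genes were 2-fold apart, 0.158% higher and 0.396% lower. It was one of 3 genes, 0.0266% of 11290, that were at least 2-fold lower on both arrays. With all-spot centring the ratios were -0.69 and -0.40, below 2-fold, and -1.46 and -0.97 relative to the median of measured genes under that centring. There the fasting difference in KO was 0.82, larger in size than the fed ratio. The KO fasted level therefore lay above WT fed in that setting. With centring on the measured genes the fasted ratio was -0.90. Of the 3 protein-coding genes on either side of it in RefSeq order, 4 were measured, with ratios from -0.04 (Syk) to 0.14 (Cks2) fed and from -0.13 (Auh) to 0.60 (Cks2) fasted.

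After fasting the Gadd45g level was higher in both genotypes, by 0.44 in WT (1.35-fold) and by 0.93 in KO (1.90-fold), both under 2-fold. Without normalization between the arrays these differences were 1.07 and 1.56, but the median of measured genes was then 0.46 in WT and 0.45 in KO. Relative to those medians Gadd45g was at 0.61 and 1.11. The fasted ratio thus lay 0.49 above the fed one, and no alternative setting brought this difference past 0.56 or below 0.28. In the fed comparison all 9 Kupffer cell markers had ratios below 0, with a median of -0.39, and their summed level was 14.10 in WT and 13.65 in KO on the log2 scale. In the fasted comparison, where Gadd45g was also lower in KO, that median was 0.15 and the summed levels were 14.06 and 14.12. With all-spot centring the fed Kupffer median was 0.49, which is -0.29 relative to the median of measured genes. The 3 neutrophil markers measured in fed liver had a median of -0.47, with 1 above 0, and the 4 in fasted liver one of -0.01. S100a8 (-0.47) and S100a9 (-0.61) were lower in fed KO liver, and the other measured marker was at 0.16. In a summed level the brightest probes weigh most. For the 5 neutrophil genes on the array it was 14.34 in WT and 14.48 in KO fed, higher in KO. In fasted liver it was 14.21 and 14.20. The part of these cells in the fed ratio of Gadd45g was not tested.

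**Figure D1:**
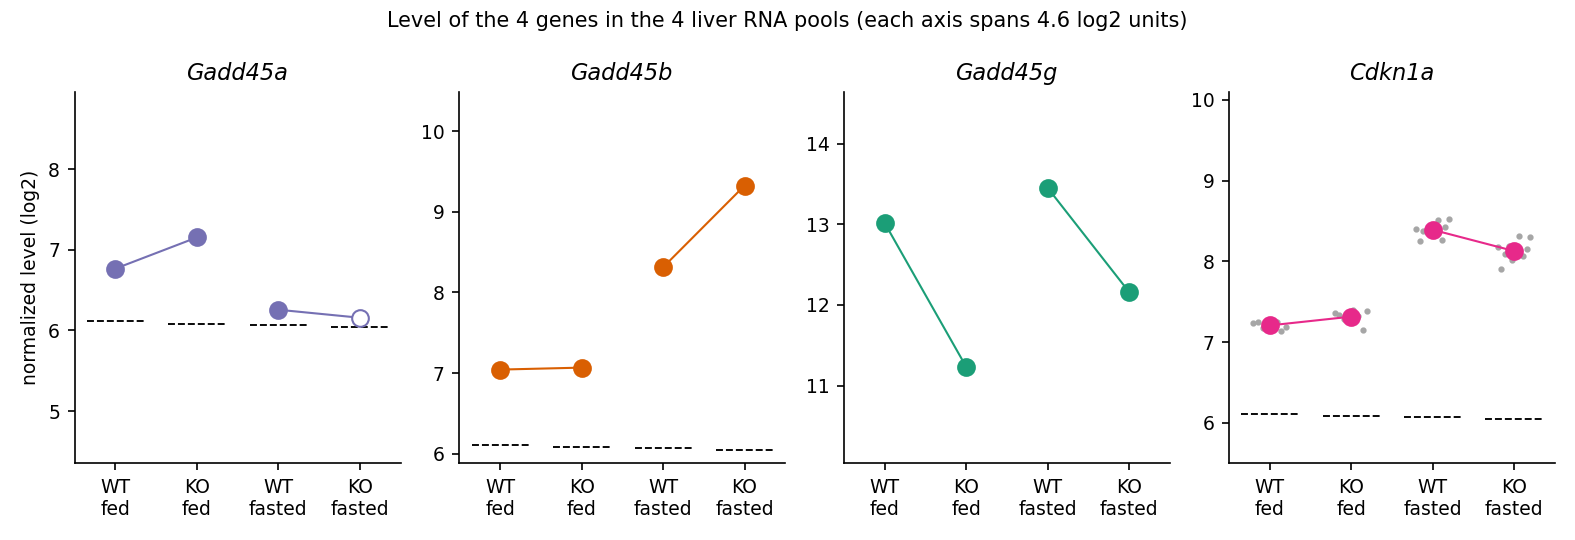
Normalized log2 level of each gene (y axis, the same span in every panel) in the 4 liver RNA pools (x axis), 1 probe per gene. Large circles are probe means, open where the probe was not well above background, small grey points are the repeated spots of the Cdkn1a probe, and dashes are the lowest level of probes well above background in that pool, which lies below the Gadd45g panel. Gadd45g was lower in both KO pools, Gadd45b was highest in KO fasted at 9.32, Cdkn1a separated by feeding state, and Gadd45a lay near background after fasting.

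Gadd45b, induced by NF-kB and TGF-beta signalling, did not differ by genotype in fed liver and was higher in the KO pool after fasting. It was at 7.04 in WT fed, 7.07 in KO fed, 8.31 in WT fasted and 9.32 in KO fasted liver. Both fasted pools lay above both fed pools, and the fasted KO pool stood above the fasted WT pool. In WT liver the level was 1.27 higher after fasting, 2.41-fold, and in KO liver 2.26 higher, 4.78-fold. The background for these is that 4.33% of measured genes were 2-fold apart with fasting in WT and 4.56% in KO, 2.28% and 2.42% being higher, 2.05% and 2.14% lower. The KO difference was the 21st highest of 11785 genes and the WT difference the 152nd highest of 11441. Both fasting comparisons cross the arrays, and over the alternatives they ranged from 1.04 to 2.01 in WT and from 2.26 to 3.07 in KO, so Gadd45b was past 2-fold under all of them. Its fed signals were close to background (51.5 over a background of 20.0 in Cy3, 167.5 over 74.0 in Cy5), and the offset used in the correction draws such values together. The highest values of both ranges came from scanner-processed signals, which hold no such offset.

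The KO over WT log2 ratio of Gadd45b was 0.02 in the fed and 1.01 in the fasted state, the latter 2.02-fold and just past the rule. The scanner software put them at 0.10 with an error of 0.24 and at 1.15 with an error of 0.23. Spots of 47 probes of like brightness had a median SD of 0.10 and 0.08. Together with Gadd45g, Gadd45b made 2 of the 3 measured genes of the set 2-fold apart in fasted liver, in opposite directions, against 0.791% of all measured genes either way, 0.359% higher and 0.432% lower. Over the alternatives the fasted ratio ranged from 1.01 to 1.64, while the fed ratio lay between -0.29 and 0.41 and turned below 0 with centring on the measured genes. The fasted minus the fed ratio was 0.99, 1.98-fold, the 91st highest of 11290 genes. None of the 3 genes measured in all pools was 2-fold apart in this difference, for which the share of all genes was 1.37%, 0.771% higher and 0.602% lower. The difference for Gadd45b ranged from 0.88 to 1.44 and passed 2-fold under 5 of 10 alternatives.

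**Figure D2:**
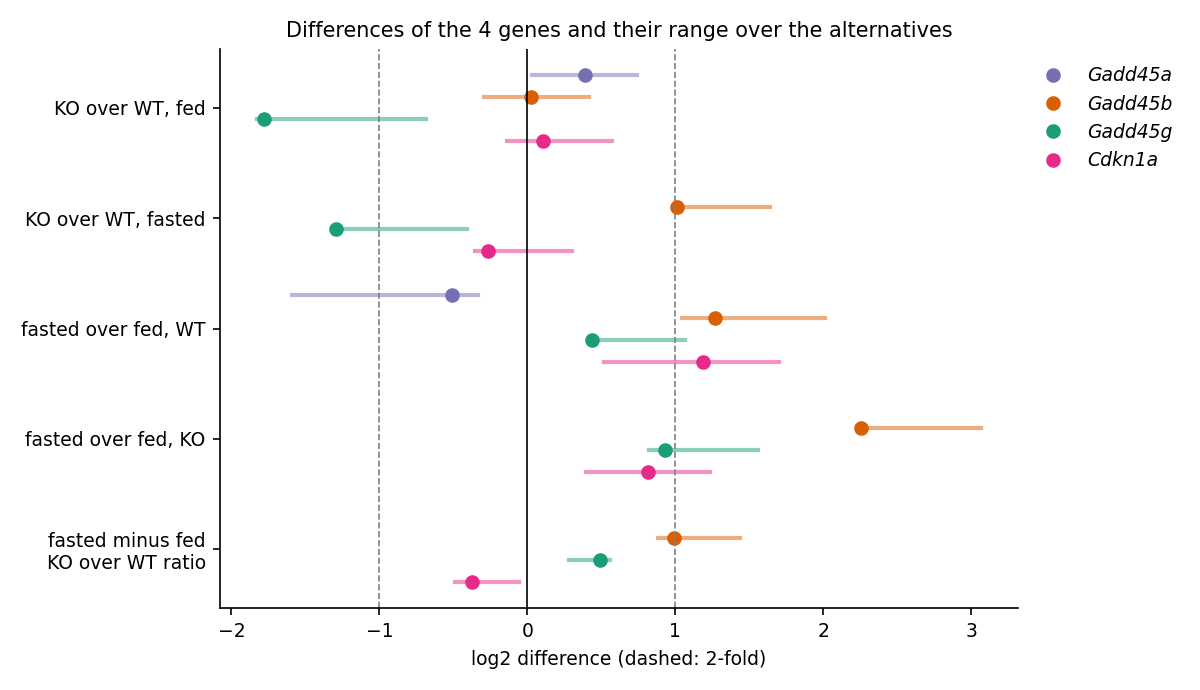
Log2 difference (x axis) of each gene in the 5 comparisons (y axis). Points are the values reported and bars run from the lowest to the highest value over the alternatives. The bars of Gadd45g lie below 0 and those of Gadd45b above 1 in the fasted genotype comparison, while the bars of Cdkn1a cross 0 in both genotype comparisons. Gadd45a has no point where a pool was not above background.

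Gadd45b and Creb3l3 are near neighbours on chromosome 10, with 5 protein-coding genes between them in RefSeq order. The 5 genes, Gng7, Diras1, Slc39a3, Sgta and Thop1, were all measured, and none was 2-fold apart in any of the 5 comparisons. Their KO over WT ratios ran from -0.11 (Slc39a3) to 0.12 (Gng7) in the fed and from -0.08 (Sgta) to 0.23 (Gng7) in the fasted state. On the far side of Gadd45b, Lmnb2, a nuclear lamin gene, was at 0.25 and 0.12. On the far side of Creb3l3 the kinase gene Map2k2 was at -0.02 and -0.14. The fasted ratio of Gadd45b at 1.01 therefore stood apart from those of the measured genes beside it. After fasting Lmnb2 was higher by 0.84 in WT and 0.71 in KO, while the other immediate neighbour, Gng7, differed by 0.04 and 0.15. The labels do not describe the KO allele or the sequence around it, and its part in the Gadd45b ratio was not tested.

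**Figure D3:**
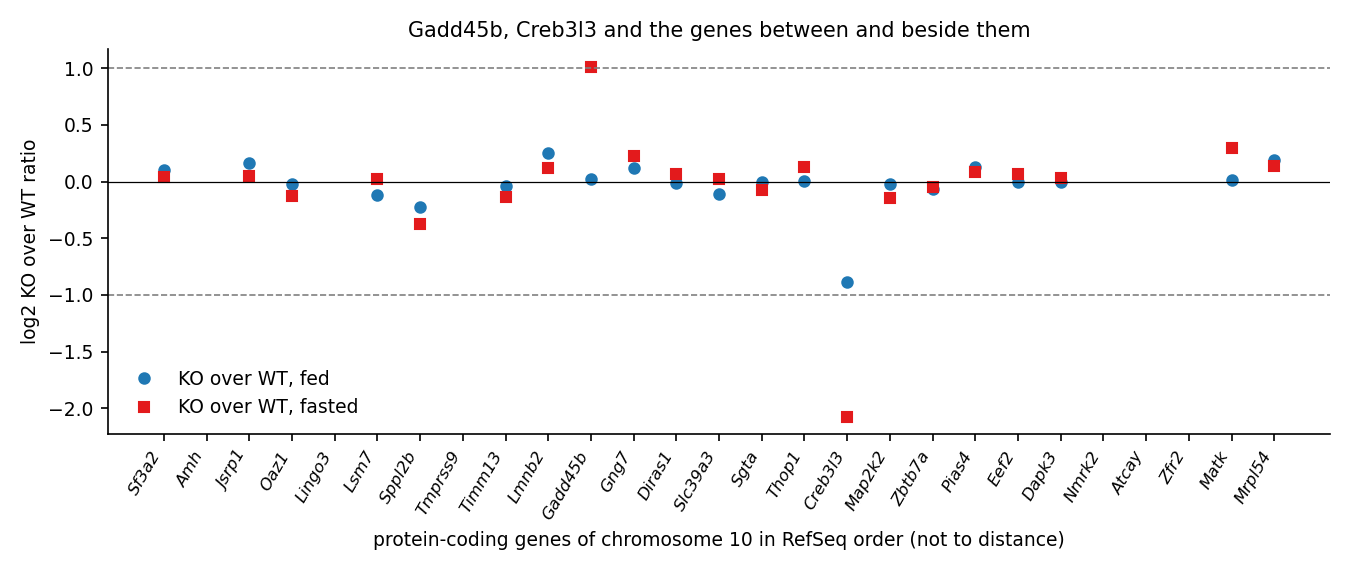
Log2 KO over WT ratio (y axis) of protein-coding genes of chromosome 10 in RefSeq order (x axis, not to distance), from 10 genes before Gadd45b to 10 genes after Creb3l3. Circles are the fed and squares the fasted array, and genes without a point were not measured. Gadd45b in the fasted state (1.01) and Creb3l3 in both (-0.88 and -2.07) stand apart from the other genes, which lie between -0.37 and 0.29.

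Cdkn1a was higher after fasting in both genotypes and differed little between them. The gene has a pair of RefSeq start sites with a probe for each transcript, so the windows before both starts are shown, with the same matches in capitals.
Cdkn1a, upstream start, chr17:29090729-29090978, plus strand: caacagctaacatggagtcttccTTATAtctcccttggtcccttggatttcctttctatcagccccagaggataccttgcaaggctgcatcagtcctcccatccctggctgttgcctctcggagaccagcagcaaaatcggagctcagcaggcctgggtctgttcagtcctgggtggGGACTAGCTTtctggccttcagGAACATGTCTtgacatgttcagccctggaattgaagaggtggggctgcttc
Cdkn1a, downstream start, chr17:29093519-29093768, plus strand: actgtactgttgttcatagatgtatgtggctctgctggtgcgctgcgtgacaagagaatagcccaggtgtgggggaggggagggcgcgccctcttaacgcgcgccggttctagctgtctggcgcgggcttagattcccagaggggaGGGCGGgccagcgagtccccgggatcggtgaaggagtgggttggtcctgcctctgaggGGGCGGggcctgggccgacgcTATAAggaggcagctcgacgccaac

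The window of the upstream start held 2 p53 half-sites, GGACTAGCTT and GAACATGTCT, and TATAA on the other strand (TTATA). The window of the downstream start held no p53 half-site, but 2 GC boxes and TATAA. The probe of the upstream transcript (NM_001111099) was not well above background in any pool, with signals of 26.0 and 76.0 on the fed array over backgrounds of 25.0 and 74.5. No ratio was taken from it. Probe positions were not available, so whether either probe reads both transcripts is not known. All values of Cdkn1a come from the probe of NM_007669, which was printed 10 times. Of its spots 8 were used on the fed array, where 2 were marked as outliers, and 10 on the fasted array.

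The Cdkn1a level, as mean ± SD over spots, was 7.21 ± 0.04 in WT fed (8 spots), 7.31 ± 0.08 in KO fed (8 spots), 8.39 ± 0.09 in WT fasted (10 spots) and 8.13 ± 0.13 in KO fasted liver (10 spots). The fasted pools lay above the fed pools in every spot, the highest fed spot being at 7.39 and the lowest fasted one at 7.90. The spots of a feeding state all lie on the same array, so this does not separate feeding from array. Fasting went with a difference of 1.19 in WT, 2.27-fold (SD 0.05 over 8 spots), and of 0.81 in KO, 1.76-fold (SD 0.11). These were the 182nd highest of 11441 and the 434th highest of 11785. With Gadd45b, Cdkn1a made 2 of 4 measured genes of the set past 2-fold in WT liver, against the 4.33% of all genes given above. In KO liver Gadd45b was the 1 of 3 past it. The KO difference of Cdkn1a passed 2-fold with scanner-processed signals, with a smaller offset and without normalization between arrays (1.23). The last was 0.79 relative to the median of measured genes in that setting. Averaging with the dim second probe lowered the differences to 0.52 and 0.40.

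The KO over WT log2 ratio of Cdkn1a was 0.11 in the fed state (SD 0.05 over 8 spots, from 0.02 to 0.20) and -0.26 in the fasted state (SD 0.06 over 10 spots, from -0.35 to -0.18). All spots of the fed array lay above 0 and all spots of the fasted array below it. Spots of 1 array share the same RNA and are not replicates of a genotype. In fold terms the ratios were 1.08 and 1.20, with 28.9% of measured genes above the fed ratio and 7.93% below the fasted one. With all-spot centring the fasted ratio turned to 0.31, with centring on the measured genes the fed one to -0.14, and with both probes averaged the fed one to -0.0065. Relative to the median of measured genes they were -0.21 and -0.26 under either centring.

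**Figure D4:**
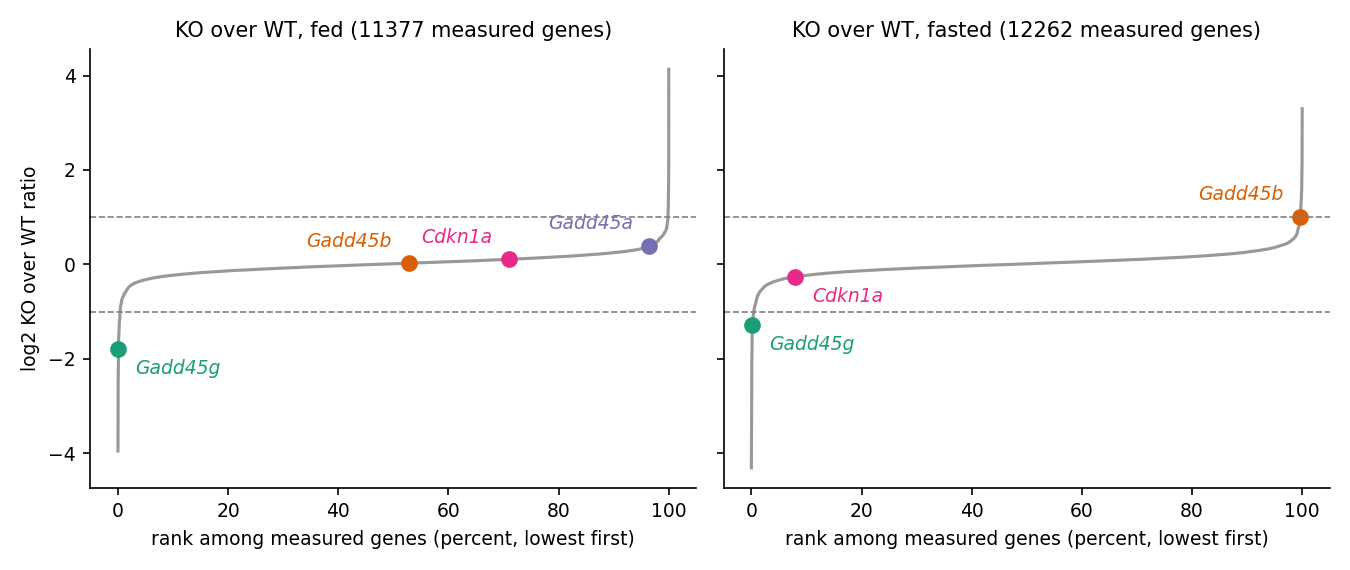
All measured genes ranked by their log2 KO over WT ratio (x axis, rank in percent from the lowest; y axis, ratio) on the fed array (left, 11377 genes) and the fasted array (right, 12262 genes). Dashed lines mark 2-fold. Gadd45g lies at the low end in both panels, Gadd45b moves from the middle (0.02) to the high end (1.01), and Gadd45a is missing on the right since its KO signal was not above background.

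Gadd45a, the p53-responsive member of the family, was at low signal in these livers. Its level was 6.77 in WT fed, 7.15 in KO fed, 6.26 in WT fasted and 6.16 in KO fasted liver, and in the last pool the probe was not well above background. Both fed pools lay above both fasted pools. The fed KO over WT ratio was 0.39, 1.31-fold higher, above that of 96.5% of measured genes but under 2-fold, and the scanner software gave 0.57 with an error of 0.25. Spots of 57 probes of like brightness had a median SD of 0.11. In WT liver the fasted level was 0.51 lower than the fed one, 1.42-fold. In KO liver the fed level was at least 1.99-fold higher than the fasted one, a bound. For the fasted WT over the fasted KO pool the same bound was 1.07-fold, 0.10 on the log2 scale. Spots of 80 probes of like brightness had a median SD of 0.10 there, so no direction is read from it. For the fasted KO over WT ratio the scanner software gave -1.17 with an error of 0.53, from a KO signal not well above background. Each bound divides the brighter signal by the dim probe's own signal, which lay above the lowest one that the software still called well above background in that pool. The offset weighs most on such dim signals. With scanner-processed signals the WT fasting difference of Gadd45a was -1.59, and over the alternatives the fed genotype ratio ranged from 0.03 to 0.74.

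The fasting differences of the 4 genes were thus unequal. In WT liver they were 1.27 for Gadd45b, 1.19 for Cdkn1a, 0.44 for Gadd45g and -0.51 for Gadd45a. The first pair was closer together than the spot SD of 0.09 for probes of their brightness, and the other neighbours in this order were further apart than that. The closeness of the first pair depended on the processing. With scanner-processed signals Gadd45b was at 2.01 and Cdkn1a at 1.70, and without background correction at 1.52 and 1.34. In KO liver they were 2.26 for Gadd45b, 0.93 for Gadd45g and 0.81 for Cdkn1a. The last pair was 0.11 apart, about the spot SD of 0.11 for Cdkn1a. The order of this last pair depended on the processing as well. Gadd45g was below Cdkn1a with scanner-processed signals (0.97 and 1.21) and with a smaller offset (0.94 and 1.02). The same held with all-spot centring (0.82 and 0.87) and with centring on the measured genes (0.93 and 0.97). Under the other alternatives Gadd45g stayed above Cdkn1a. These comparisons share their arrays, and the values of each are given side by side without a test.

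Of 23 listed p53 target genes other than the 4 members, 20 were measured in the fed and 21 in the fasted genotype comparison. None was 2-fold apart in the fed state and 1 in the fasted state, Gdf15, a stress hormone gene that was at 0.75 fed and 1.28 fasted. Among all measured genes 0.554% were 2-fold apart fed and 0.791% fasted. The list medians of -0.04 and -0.0032 stood beside medians of 0.01 and 0.01 for all measured genes. Mdm2, which encodes the ubiquitin ligase of p53, was at 0.18 and 0.14, and Ccng1, another common p53 target, at -0.08 and -0.08. Furthest below 0 was Btg2, an antiproliferative gene, at -0.81 fed and -0.54 fasted. With fasting 1 of 20 was 2-fold apart in each genotype, namely Ei24, at 1.11 in WT and 1.05 in KO. That share is near the 4.33% and 4.56% of all measured genes, and the list medians were 0.15 in WT and 0.18 in KO.

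Of 18 other cyclin-dependent kinase inhibitors, G1 cyclins, their kinases and pocket proteins, 14 were measured and none was 2-fold apart by genotype in either state. The medians were -0.03 fed and -0.06 fasted. Cdkn1b, which encodes p27, was at 0.11 and 0.13, and Cdkn1c, which encodes p57, at -0.16 and 0.08. Ccne1, encoding cyclin E1, was the furthest from 0 in the fed state at 0.56, and Ccnd3 (-0.37) and Cdkn2d (-0.31) in the fasted state. With fasting none was 2-fold apart in WT liver, where E2f1 was at -0.54 and Rbl2 at 0.54. In KO liver Ccne1 (-1.13) and E2f1 (-1.08) were lower by 2-fold, 2 of 14, against 2.14% of all measured genes.

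Among 16 binding partners and effectors of GADD45 proteins, none was 2-fold apart by genotype, of 12 measured fed and 14 fasted, with medians of -0.02 and -0.02. Map3k4, whose product GADD45 proteins activate, was at -0.13 fed and -0.29 fasted, and Map2k6, a kinase upstream of p38, at -0.28 and -0.23. With fasting, Nr1i3, which encodes CAR, was higher by 1.52 in WT and 2.001 in KO liver, and Gadd45gip1, named for its binding to GADD45G, was lower by 2-fold in both, at -1.37 and -1.56. These were the 1 gene higher and the 1 gene lower among 12 measured in WT and 14 in KO. Of all measured genes 2.28% were 2-fold higher and 2.05% lower in WT, and 2.42% and 2.14% in KO.

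Among 20 upstream transcription regulators 16 were measured. By genotype 1 was 2-fold apart in the fed state, against 0.554% of all measured genes, the growth factor response gene Egr1 at -2.46. None was in the fasted state, where Ppara, the fasting receptor for fatty acids, was at -0.74, Cebpa at -0.59 and Foxo1, a regulator of Cdkn1a in fasting, at -0.52. Trp53 itself was at 0.03 and 0.26. The list medians were -0.08 fed and -0.22 fasted, the latter 0.48 with all-spot centring, which is -0.09 relative to the measured genes there. With fasting, Cebpd, a CCAAT-binding regulator of the acute phase, was 1.503 higher in WT and 1.68 in KO. Egr1 (1.40) and Myc (1.12) were 2-fold higher in KO liver only by the rule of size, their WT differences being -0.85 and 0.67. Of all measured genes 2.28% were 2-fold higher with fasting in WT and 2.42% in KO. The difference of ratios was 2.25 for Egr1, the 1 gene of 16 past 2-fold in it, against 1.37% of all measured genes.

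Acute stress-inducible genes, 21 on the list, held 2 of 16 measured genes that were 2-fold lower in fed KO liver, Nr4a1 (-1.21) and Jun (-1.10). Of all measured genes 0.396% were 2-fold lower there. Above 0 were 4 of 16, against 53.1% of all measured genes, and the list median was -0.28. That median was 0.50 with all-spot centring, where the median of measured genes was 0.78. In the fasted state 0 of 21 were 2-fold apart, the median was -0.01, and Ddit3, which encodes the stress factor CHOP, was at 0.79 and Jun at 0.63. Ppp1r15a, also known as Gadd34 and no relative of the Gadd45 genes in sequence, was at -0.13 and -0.21. With fasting, Jun (-1.22) and Nr4a1 (-1.16) were 2-fold lower in WT, 2 of 19 measured, and Klf2 (1.08) was 2-fold higher in KO, 1 of 18. Of all measured genes 2.05% were 2-fold lower in WT and 2.42% higher in KO. Egr1, listed above with the regulators, was lower than Gadd45g in the fed state (-2.46). The fed ratio of Gadd45g lay below that of all 16 measured genes of this list, and the fasted one below all 21. The difference of ratios was above 0 in 15 of 16 genes, with a median of 0.34 beside 0.49 for Gadd45g and 0.99 for Gadd45b, while 48.8% of all measured genes were above 0. In the same comparison 9 of 9 Kupffer cell markers were above 0, with a median of 0.42, and 2 of 3 neutrophil markers, with a median of 0.60. Their part in these differences was not tested. Jun (1.73) and Nr4a1 (1.103) were past 2-fold in the difference of ratios, 2 of 16, against 0.771% of all measured genes higher. The lists overlap in regulation, and the medians describe these pools alone.

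**Figure D5:**
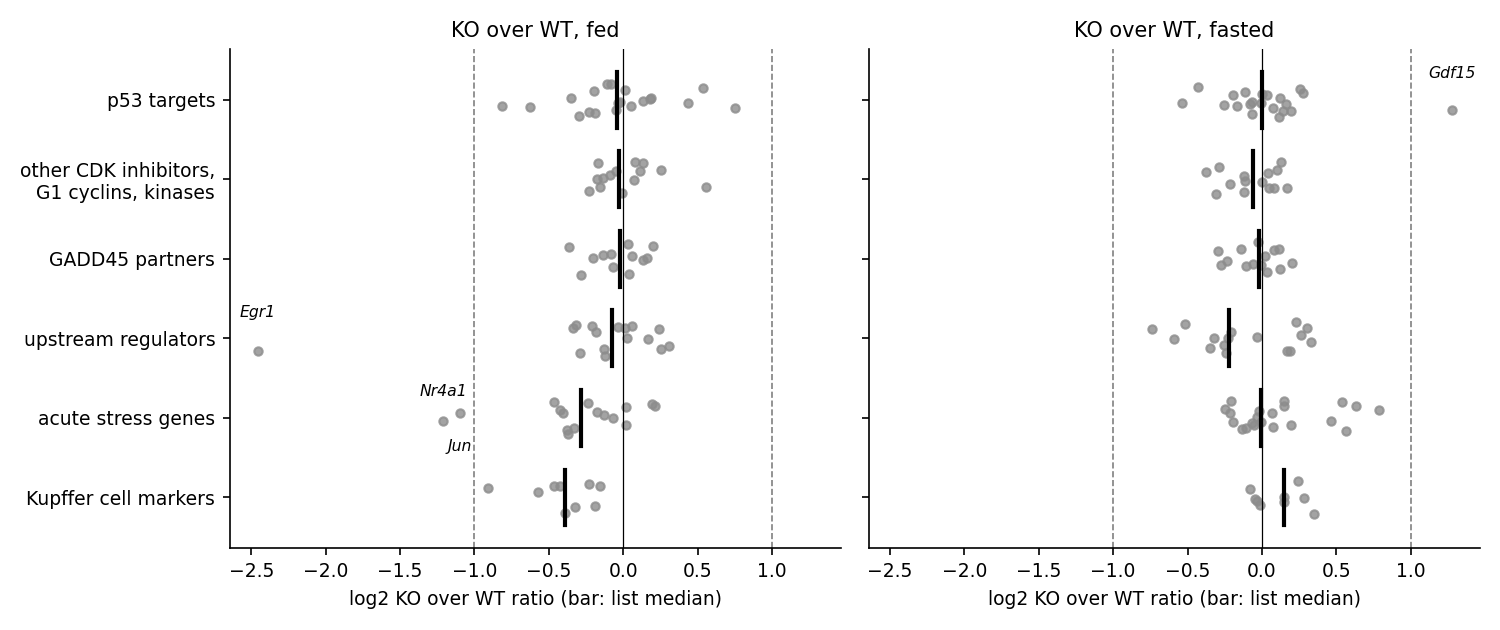
Log2 KO over WT ratios (x axis) of the measured genes of 6 lists (y axis) on the fed array (left) and the fasted array (right). Each grey point is a gene, black bars are list medians, dashed lines mark 2-fold, and genes past it are named. The points lie mostly within 2-fold, with Egr1, Nr4a1 and Jun lower in the fed state and Gdf15 higher in the fasted state, and the Kupffer cell medians were -0.39 and 0.15.

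The genes most like each member were found among 898 measured genes whose level spanned at least 1 log2 unit over the 4 pools, by the Euclidean distance between log2 levels centred on each gene's own mean. Nearest to Gadd45g were Phlda1 (distance 0.47) and the metallothionein gene Mt1 (0.60). Phlda1 had ratios of -1.80 fed and -0.93 fasted, and Mt1 of -1.35 and -0.69. Nearest to Gadd45b were Pctp, a phosphatidylcholine transfer protein gene (0.28), Fabp7, a fatty acid binding protein gene (0.33), and Inhbb, which encodes an activin and inhibin chain (0.33). They were at -0.18, -0.01 and 0.27 in the fed and at 0.67, 0.91 and 0.76 in the fasted genotype comparison. Nearest to Cdkn1a were Slc41a3 (0.09), Cyp2d22 (0.10) and Fbxo21 (0.12), whose fasting differences in WT lay between 1.07 and 1.101. With 4 pools, such likeness is a description of 4 values per gene.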

How the data were processed

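Liver RNA pools of WT (Cy3) and KO (Cy5) mice were read on 1 array per feeding state. Per the file headers, the authors deposited output of Agilent Feature Extraction 10.10.1.1 on a grid of mouse build mm9. Median spot and background intensity values were deposited without normalization, while the deposited processed intensity values are background-subtracted and dye-normalized by the scanner software. The deposited log10 ratio of a spot is Cy5 over Cy3, with an error and a p-value from that software's error model for 1 spot; the p-value was not used. The authors' deposited value table holds log2 ratios within 0.005 of these and has a median of 0.00 on both arrays, so its scale, centring and direction are those of the scanner software.

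Median signals were corrected with normexp (offset 50, fitted on all spots) and normalized by loess with control spots (3671) at weight 0. Between arrays Aquantile over gene spots was used (limma 3.58.1, R 4.3.3). A test on simulated arrays changed only probes well above background and read only ratios within an array. It does not cover dim probes or the fasting differences. Outlier spots (216 fed, 197 fasted) were left out, no gene spot was saturated, and spots of a probe were averaged. RefSeq accessions named 26762 of 55681 probes through the GRCm38.p6 gene table. The brightest probe stood for a gene, measured where at least 50% of its spots were well above background in each pool compared. Array number limits the precision. Genes named are the 4 members, Creb3l3, list members past 2-fold or else the 2 furthest from 0, and the 3 nearest in level per member, of which 1 is not reported here; Mdm2, Ccng1, Cdkn1b, Cdkn1c, Trp53, Foxo1, Ppp1r15a, markers at background and the neighbours of Gadd45b, Gadd45g and Creb3l3 were added for their roles or position, after their values were seen. Members and lists were chosen with earlier results of these data known. The alternatives were other background corrections, centrings, filters and probe rules, and the value table.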

Additional observations from a re-analysis of the deposited data

Results flagged for a closer look

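The KO over WT ratio of Cdkn1a was above 0 on the fed array and below 0 on the fasted array, a difference of -0.37 on the log2 scale, 1.29-fold. With 1 array per feeding state this difference was not tested. It was below 0 under all 10 alternatives and ranged from -0.49 to -0.05.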

How the results depend on the processing

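Over 10 alternatives, 159 of 163 values of the 4 genes kept their sign, and none of the values past 2-fold changed sign. The exceptions were Gadd45b and Cdkn1a in the genotype comparisons, as given above. Many of the 163 values equal the reported ones, so the count overstates how far the signs were tried. The filters changed no member value, leaving out normalization between arrays changed no genotype ratio, and averaging probes changed Cdkn1a only. The authors' value table nearly repeats the scanner-processed ratios. With all-spot centring, 0 of the 4 genes in place of 1 was 2-fold apart in the fed genotype comparison, 1 in place of 2 in the fasted one, and 1 in place of 0 in the difference of ratios. Centring on the median of measured genes gave 1 in place of 2 in the fasted genotype comparison and 1 in place of 0 in the difference of ratios. Scanner-processed signals and an offset of 10 each gave 2 in place of 1 for fasting in KO and 1 in place of 0 in the difference of ratios, for which the authors' value table also gave 1. Without normalization between arrays 3 genes were past 2-fold for fasting in KO and 3 in place of 2 in WT, where Gadd45g was added. In that setting the median of all measured genes was 0.46 for fasting in WT and 0.45 in KO. Relative to it, Gadd45g was at 0.61 in WT and 1.11 in KO, and Cdkn1a at 0.79 in KO. With scanner-processed signals 3 were past it in WT, where Gadd45a was added. Averaging probes gave 1 in place of 2 for fasting in WT, since the second Cdkn1a probe is at background. The cause was not tested for the others. Gadd45a and the fed signals of Gadd45b lay near background, which limits their ratios. No paired analysis was possible because each group has 1 pool.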
